A study of Mus musculus with 12 samples.

Results

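The MS4A family is a group of small proteins that pass through the membrane several times, and most of its genes lie in one cluster on mouse chromosome 19. The members described here were taken by name: Ms4a1, Ms4a2, Ms4a3, Ms4a4b, Ms4a4c, Ms4a4d, Ms4a6b, Ms4a6c, Ms4a6d and Ms4a7. They make up 10 of the 18277 genes tested and 17 of the 41174 probes on the arrays. Another 9 Ms4a symbols have a probe on the array, some of them through the RefSeq table. They were Ms4a5, Ms4a8a, Ms4a10, Ms4a11 (an older name of Ms4a6d in that table), Ms4a12, Ms4a13, Ms4a14, Ms4a19 and Ms4a20.

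RNA came from peritoneal exudate cells, the mixture of macrophages, B cells, mast cells and other cells that can be washed out of the abdominal cavity. The 4 groups, each with 3 arrays, were Ifnar2-/- mice given IFN-β, Ifnar2-/- mice given PBS, wild-type mice given IFN-β and wild-type mice given PBS. All mice were 8-week-old females of the strain 129S2/SvPas*BALB/c, each sample came from different mice, and cells were lysed 3 hours after the intraperitoneal injection. IFN-β was given at 10000 IU/ml in a volume that the labels do not state, and PBS was the control injection. Ifnar2 encodes a subunit of the type I interferon receptor, and the comparison of genotypes asks which responses to IFN-β take place without it. How the Ifnar2 allele was made, in which cells it is missing and whether the mice were littermates are not given in the sources used here.

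Several MS4A proteins are known as lineage markers. Ms4a1 encodes CD20, the B-cell surface protein to which therapeutic anti-CD20 antibodies bind, and Ms4a2 encodes the β chain of the high-affinity IgE receptor of mast cells and basophils. Ms4a3 is known from granulocyte and monocyte progenitors, Ms4a4b from T cells and NK cells, and Ms4a7 from tissue macrophages. The Ms4a4 and Ms4a6 genes of the mouse are recent duplicates that resemble each other closely, which makes the sequence under each probe part of the evidence.

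Probes of 60 bases are shown for the Ms4a4 genes, to set their likeness beside their values, and for Ms4a6c, with the positions that the array files give in the mouse build mm7, all on the plus strand. The probes used for Ms4a4c, Ms4a4d and Ms4a6c are printed, while the Ms4a4b probes printed are not the one used for that gene but those with the largest rise. These first and second Ms4a4b probes lie at chr19:11134887-11137970 and chr19:11137956-11139315. The Ms4a4d probe lies at chr19:11232973-11234949, the Ms4a4c probe at chr19:11106389-11106448 and the Ms4a6c probe at chr19:11151215-11151274. The stated span of the Ms4a4d probe and of both Ms4a4b probes is longer than the probe itself. Exon or UTR positions in that build were not used here. In the Ms4a4b and Ms4a4d sequences, capitals mark the longest run of bases shared with another probe printed here: the first Ms4a4b probe shares its run with Ms4a4d, and the second shares its run with the first.
Ms4a4b, first probe: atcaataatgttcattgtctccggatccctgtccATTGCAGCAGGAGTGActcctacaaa
Ms4a4b, second probe: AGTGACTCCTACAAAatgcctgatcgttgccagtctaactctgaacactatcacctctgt
Ms4a4d: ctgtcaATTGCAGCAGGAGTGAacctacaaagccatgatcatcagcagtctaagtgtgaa
Ms4a4c: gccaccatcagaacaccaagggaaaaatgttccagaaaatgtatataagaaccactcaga
Ms4a6c: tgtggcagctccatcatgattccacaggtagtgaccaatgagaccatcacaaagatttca
Among 315 pairs of MS4A probes made for different genes, 1 pair shared an identical run of 15 bases or more, and it is this pair of Ms4a4b and Ms4a4d. The run is 16 bases long. The Ms4a4c and Ms4a6c probes shared no such run with a probe of another gene. Binding of a probe to a relative's RNA was not tested.

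Values are the log2 of a spot's processed signal minus the log2 of the array's own 75th percentile, so that 0 stands for a signal at that percentile and each unit is a doubling. Such levels can be compared between arrays for a probe but not between probes. The probe used for each of the 10 genes was well above background on all 12 arrays, and none was saturated. Arrays of slide 3, which held Ifnar2-/- arrays 2 and 3 of both treatments, had fewer spots well above background (59.4% to 62.5%) than the other 8 arrays (65.2% to 71.6%). The genotype comparison after PBS, where 2 of 3 Ifnar2-/- arrays lie on slide 3, is also given without that slide for Ms4a2, Ms4a6d, Ms4a7 and some other genes. Ifnar2 has 2 probes that moved in opposite directions with genotype. Its brighter probe read 2.92 to 3.20 and 2.69 to 2.95 in Ifnar2-/- cells after IFN-β and PBS, against 4.50 to 4.77 and 4.42 to 4.87 in wild type. Its other probe read 2.63 to 3.11 and 2.49 to 2.69 in Ifnar2-/- cells, against 1.08 to 1.78 and 1.56 to 1.68 in wild type. Neither probe was below background in Ifnar2-/- cells, and whether either lies in the deleted part was not tested.

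In wild-type mice, 6 of the 10 genes rose 3 hours after IFN-β and none fell. A gene was called at a Benjamini-Hochberg adjusted p under 0.05 in limma, a rule that called 39.4% of all genes in this comparison, 17.6% higher and 21.8% lower. The median log2 fold change was 1.82 over the 10 genes and -0.04 over all genes tested. The genes that rose were the 3 Ms4a4 genes and the 3 Ms4a6 genes, and those that did not pass the test were Ms4a1, Ms4a2, Ms4a3 and Ms4a7. These are whole cell mixtures, in which a change in the number of cells of a type cannot be told apart from a change in RNA per cell.

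**Figure D1:**
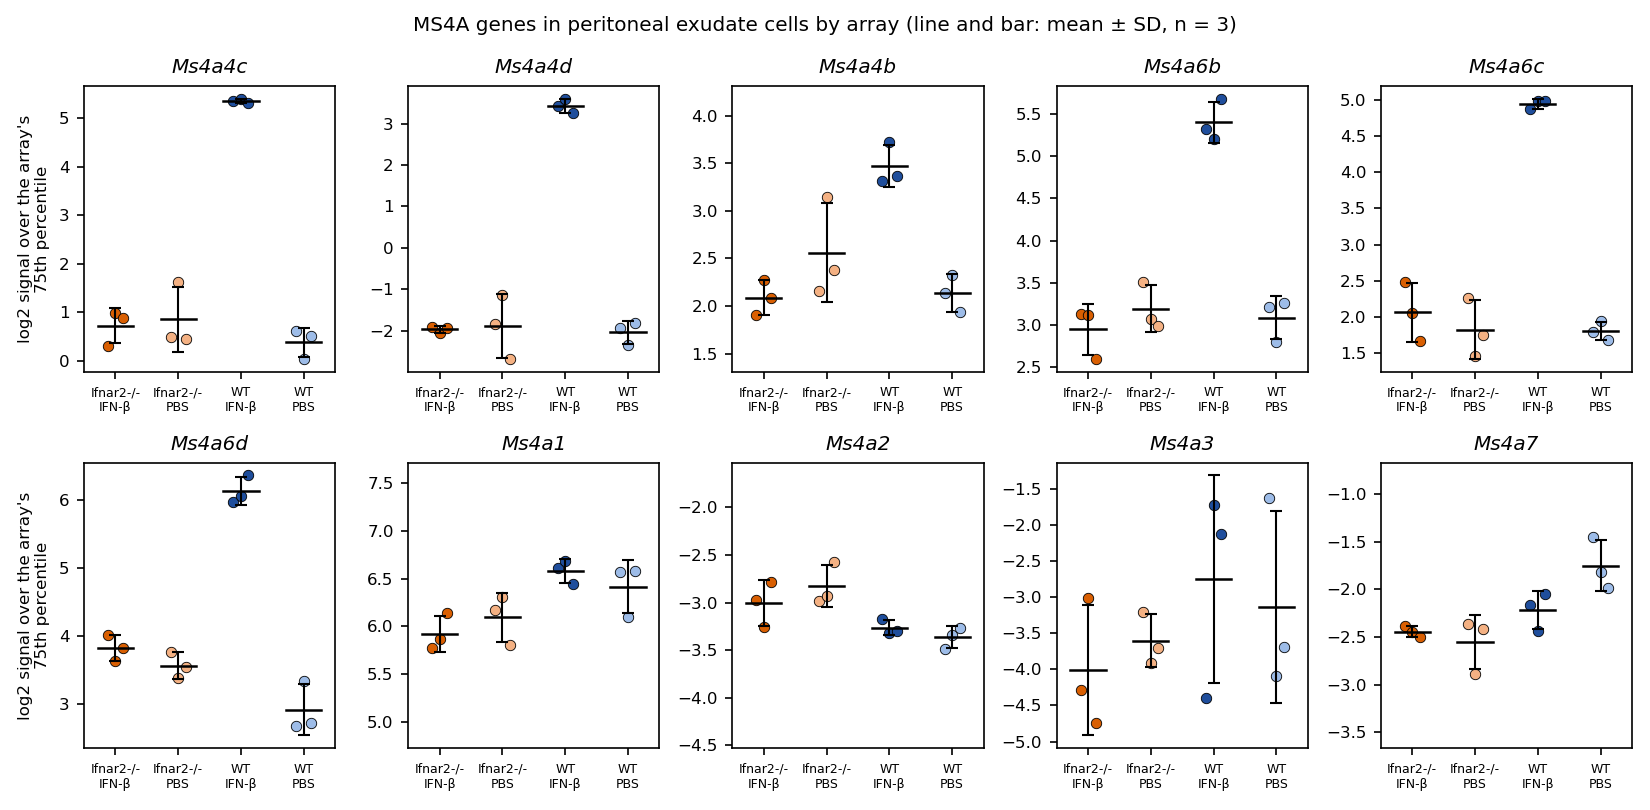
Each panel plots 1 MS4A gene, with the log2 signal over the array's 75th percentile on the vertical axis and the 4 groups on the horizontal axis. Points are arrays, and lines with bars are means ± SD (n = 3). In the first 6 panels the wild-type IFN-β arrays stand above all other arrays, and in the other panels they do not. The axes of the panels differ.

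Ms4a4d rose the most. It read 3.43, 3.59 and 3.25 on the wild-type IFN-β arrays, against -1.94, -2.34 and -1.82 on the wild-type PBS arrays, so that the groups lay far apart. The fitted difference was 5.46 ± 0.31 (log2, SE), a 43.9-fold rise with a limma adjusted p of 5.08e-07, and it ranked 65 among the rises of all 18277 genes. Without Ifnar2, Ms4a4d read -1.91, -2.06 and -1.93 after IFN-β, against -1.84, -1.13 and -2.68 after PBS. Those groups overlapped, at the level of the wild-type PBS arrays, and the difference was -0.08 (adjusted p = 0.916). A second Ms4a4d probe was well above background on 3 of 12 arrays and was not tested.

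Ms4a4c behaved in a like manner. It read 5.35, 5.39 and 5.31 after IFN-β in wild type, against 0.60, 0.04 and 0.51 after PBS. The rise was 4.97 ± 0.30 (log2, SE), or 31.2-fold, with a limma adjusted p of 7.77e-07 and rank 91 among the rises. The IFN-β arrays of wild type were nearly level with each other (SD 0.04, n = 3). The Ifnar2-/- arrays read 0.31, 0.98 and 0.87 after IFN-β, against 0.48, 1.62 and 0.45 after PBS. These groups overlapped as well. A second Ms4a4c probe gave a rise of 5.30 ± 0.29 in wild type, on a probe for which the files give no position.

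Ms4a4b, the member known from T cells and NK cells, rose less on the probe used. It read 3.32, 3.72 and 3.37 after IFN-β in wild type, against 2.14, 2.33 and 1.94 after PBS. The rise was 1.33 ± 0.24 (log2, SE), or 2.52-fold (limma adjusted p = 0.0013), and the groups did not overlap. The Ifnar2-/- arrays read 1.90, 2.28 and 2.09 after IFN-β, against 2.16, 3.15 and 2.38 after PBS, which overlapped.

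The 4 probes of Ms4a4b disagreed on the size of its rise but not on its direction. The first and second probes printed above gave 3.12 ± 0.21 and 2.93 ± 0.21 (log2, SE), and the other 2 probes gave 1.33 ± 0.24 and 1.32 ± 0.24. All 4 passed the test in wild type, and the mean over the probes of Ms4a4b rose by 2.18. The first probe is the one that shares the 16-base run with the Ms4a4d probe. The second, with almost the same rise, has no run of 15 bases or more in common with a probe of another MS4A gene. It still resembles the Ms4a4d probe. In local alignments with that probe, the first was identical at 29 of 32 columns and the second at 35 of 46. Whether splice forms or binding to Ms4a4d RNA move with the difference in size among the probes was not tested.

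**Figure D2:**
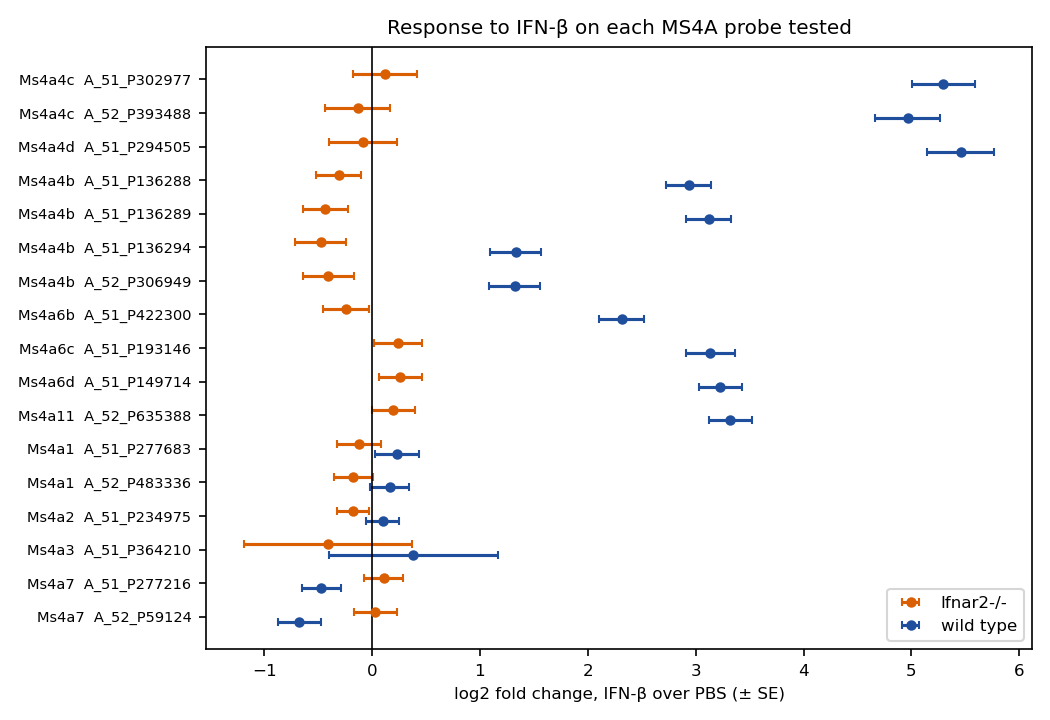
The horizontal axis is the log2 fold change of IFN-β over PBS for every MS4A probe that was tested, with Ifnar2-/- in orange above wild type in blue and bars of ± 1 SE. The blue points of the Ms4a4b probes form 2 pairs, near 3 and near 1.3, and the orange points of all probes lie near 0.

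The Ms4a6 genes rose together. Ms4a6d read 5.98, 6.07 and 6.37 after IFN-β in wild type, against 2.68, 3.34 and 2.71 after PBS. Its rise was 3.23 ± 0.20 (log2, SE), or 9.38-fold, with a limma adjusted p of 8.53e-07. In Ifnar2-/- cells Ms4a6d read 4.02, 3.63 and 3.82 after IFN-β, against 3.77, 3.37 and 3.55 after PBS, so that these groups overlapped. A probe that the files name Ms4a11, an older name of Ms4a6d in the RefSeq table, gave 3.32 in wild type and 0.20 in Ifnar2-/-. It is a separate measurement of what is likely the same gene and was not counted as a member.

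Ms4a6c read 4.87, 4.98 and 4.98 after IFN-β in wild type, against 1.80, 1.94 and 1.68 after PBS. The rise was 3.14 ± 0.23 (log2, SE), or 8.79-fold (limma adjusted p = 2.78e-06), with no overlap between the groups. It read 2.48, 2.05 and 1.67 after IFN-β in Ifnar2-/- cells, against 2.26, 1.46 and 1.76 after PBS. These groups overlapped, and all were well below the wild-type IFN-β arrays.

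Ms4a6b, which has been studied in T cells, read 5.32, 5.21 and 5.68 after IFN-β in wild type, against 3.21, 2.79 and 3.26 after PBS. The rise was 2.31 ± 0.21 (log2, SE), or 4.98-fold (limma adjusted p = 1.48e-05), again without overlap. In Ifnar2-/- cells Ms4a6b read 3.13, 3.11 and 2.60 after IFN-β, against 3.51, 3.07 and 2.99 after PBS, which overlapped. Among the rises of all genes, Ms4a6d ranked 277, Ms4a6c 296 and Ms4a6b 516, while Ms4a4b ranked 1213. On the probes used, Ms4a4d and Ms4a4c thus stood at the top of the order and Ms4a4b at the bottom, a place that depends on its probe. Neighbours in that order, Ms4a4d with Ms4a4c and Ms4a6d with Ms4a6c, had overlapping intervals of ± 1 SE.

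No member passed the test in Ifnar2-/- cells, in either direction, where the same rule called 1.13% of all genes. The 10 log2 fold changes lay between -0.47 for Ms4a4b (adjusted p = 0.324) and 0.26 for Ms4a6d (adjusted p = 0.527), with a median of -0.15, against -0.05 over all genes tested. The standard errors were the same as in wild type, since a single fit gave both. Without adjustment, 0 of the 10 members had a limma p under 0.05 in this fit. The share over all genes was not counted, so nothing is read from this count. On slide 3 alone, with 2 arrays a group, no member was called either, beside 38 of all genes. Slide 2 held 1 Ifnar2-/- array of each treatment. These had no spread of their own there, so the count on that slide is not read as a result. Ifnar2-/- arrays of the same replicate number shared a slide. A limma fit of these 6 arrays, with the number as a block, called 0 members and 0 of all genes after adjustment. At an unadjusted p under 0.05 it called 0 members and 2802 of 18267 genes.

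The responses themselves differed between genotypes for the same 6 genes. The response in Ifnar2-/- minus that in wild type was -5.54 ± 0.44 for Ms4a4d (log2, SE, limma adjusted p = 1.58e-05) and -5.10 ± 0.43 for Ms4a4c (adjusted p = 2.21e-05). The Ms4a6 genes gave -2.97 ± 0.28 for Ms4a6d, -2.89 ± 0.32 for Ms4a6c and -2.56 ± 0.30 for Ms4a6b, and Ms4a4b gave -1.81 ± 0.34 (adjusted p = 0.00408). This test called 6 of the 10 members lower, beside 17.8% of all genes called in either direction, 8.68% higher and 9.09% lower. No slide holds both PBS groups, so that this difference has no value within a slide.

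**Figure D3:**
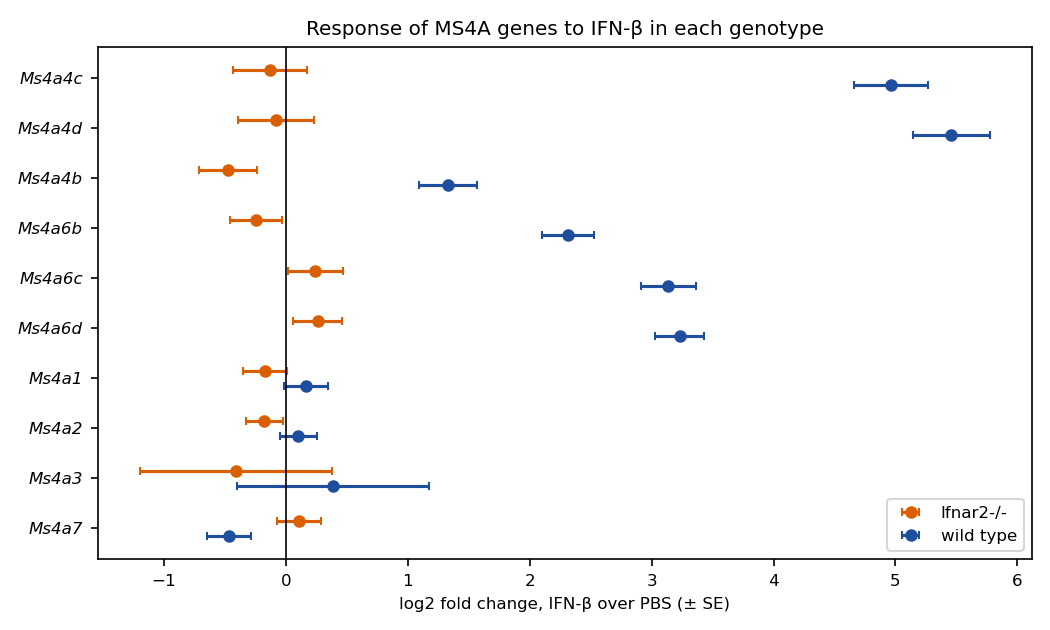
The horizontal axis is the log2 fold change of IFN-β over PBS with bars of ± 1 SE, and the rows are the 10 MS4A genes, with Ifnar2-/- in orange above wild type in blue. The Ms4a4 and Ms4a6 genes have blue points from 1.33 to 5.46 and orange points from -0.47 to 0.26. The intervals of the 4 lower rows lie close to 0 in both genotypes, except for the wide ones of Ms4a3.

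The rises were also present within a slide. On slide 1, which held the 3 wild-type PBS arrays and wild-type IFN-β array 1, Ms4a4d was higher after IFN-β by 5.47, Ms4a4c by 4.96, Ms4a6d by 3.07, Ms4a6c by 3.06, Ms4a6b by 2.23 and Ms4a4b by 1.18. Each passed the test in a fit of all 12 arrays with a mean for each group on each slide. The lone IFN-β array of slide 1 adds no spread of its own there and is assumed to vary like the groups that have several arrays on a slide.

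The 6 genes that rose lie side by side on chromosome 19. In the gene order of GRCm38.p6 they run Ms4a4c, Ms4a4b, Ms4a6c, Ms4a6b, Ms4a4d and Ms4a6d, with Gm8369, for which no gene was tested, between Ms4a6c and Ms4a6b. Ms4a7 and Ms4a4a come before them, and Ms4a2 and then Ms4a3 follow. Ms4a4a had no probe by that name. The stretch from Ms4a4c to Ms4a6d therefore held 6 tested genes, all higher, and neither tested neighbour of that stretch, Ms4a7 at one end and Ms4a2 at the other, passed the test in wild type.

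**Figure D4:**
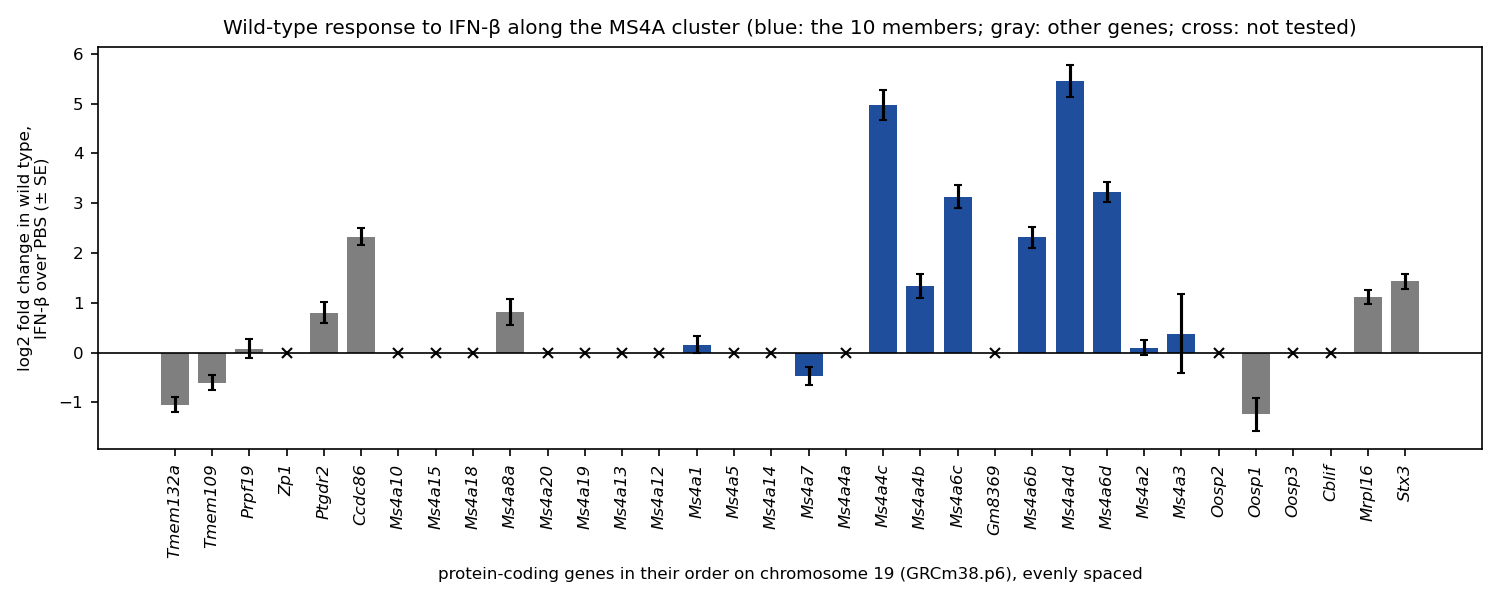
Bars are log2 fold changes of IFN-β over PBS in wild type (± SE), with genes placed at even spacing in their order on chromosome 19, members in blue and other genes in gray. Crosses at 0 mark genes that were not tested. The tall blue bars stand next to each other from Ms4a4c to Ms4a6d, with values from 1.33 to 5.46.

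Farther out in the cluster the values were smaller or the genes could not be read. Ms4a8a, at the other end of the family's stretch, rose by 0.82 ± 0.26 in wild type (log2, SE, limma adjusted p = 0.0284) and gave -0.36 in Ifnar2-/-. The arrays read 5.44, 5.47 and 5.73 after IFN-β in wild type, against 4.40, 5.05 and 4.74 after PBS, which did not overlap. For Ms4a8a the response in Ifnar2-/- minus that in wild type was -1.18 ± 0.37 (log2, SE, limma adjusted p = 0.0495). The probes of Ms4a5, Ms4a10, Ms4a12, Ms4a13, Ms4a14, Ms4a19 and Ms4a20 did not pass the filter on dim probes. Genes beyond the MS4A cluster moved both ways in wild type, among them Ccdc86 (2.33), Stx3 (1.43), Tmem132a (-1.04) and Oosp1 (-1.24), all past the test and picked as examples after their values were seen. The relatives Tmem176a and Tmem176b, which lie on chromosome 6, gave -0.10 and -0.17 after IFN-β in wild type and did not pass the test.

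Promoter sequence was looked at because these genes moved together. RefSeq windows of 250 bases before the start site (GRCm38.p6) were found for 8 of the 10 members, and Ms4a1 and Ms4a6d had none. The interferon-stimulated response element core (GAAA, then 2 bases of any kind, then GAAA), held by 2.98% of 32851 promoter windows of the table, and the gamma-activated site core TTCNNNGAA, held by 7.02%, matched no member's window on either strand. A shorter form of the first, GAAANNGAA, which drops the last base and was chosen after the promoters had been seen, was held by 7.13% of windows. It matched in Ms4a6b at positions -206 to -198, in Ms4a6c at -133 to -125 and also in the windows of Ms4a7, which did not rise. The windows of Ms4a6b and Ms4a6c are printed because they are near copies around that match, which capitals mark. They lie at chr19:11518309-11518558 and chr19:11469118-11469367, on the plus strand.
Ms4a6b: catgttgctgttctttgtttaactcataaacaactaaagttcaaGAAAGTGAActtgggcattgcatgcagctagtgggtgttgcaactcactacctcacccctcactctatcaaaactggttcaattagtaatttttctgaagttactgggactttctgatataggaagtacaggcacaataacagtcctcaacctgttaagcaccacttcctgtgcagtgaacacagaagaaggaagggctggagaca
Ms4a6c: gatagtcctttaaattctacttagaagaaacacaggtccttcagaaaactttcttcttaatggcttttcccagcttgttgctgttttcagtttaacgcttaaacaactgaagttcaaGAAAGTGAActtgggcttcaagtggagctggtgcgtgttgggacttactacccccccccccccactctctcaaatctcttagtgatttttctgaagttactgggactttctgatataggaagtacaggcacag
In a local alignment these windows were identical at 151 of 181 columns (83.4%), with a longest identical run of 48 bases. The windows of Ms4a4b and Ms4a4c were identical at 181 of 247 columns (73.3%), and both held GAGGAA, a core bound by the myeloid factor PU.1, at -64 to -59 and at -61 to -56. That core was held by 23.3% of all windows. A match is a description of letters only.

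The lineage markers of the family were read next to other markers of the same cells. Ms4a1 (CD20) read 6.61, 6.69 and 6.44 after IFN-β in wild type, against 6.57, 6.10 and 6.58 after PBS. The groups overlapped, and the difference was 0.16 ± 0.18 (log2, SE, limma adjusted p = 0.517). In Ifnar2-/- cells Ms4a1 read 5.77, 5.86 and 6.13 after IFN-β, against 6.17, 6.30 and 5.81 after PBS, with a difference of -0.17. Of 14 other B-cell markers, 6 fell in wild type, 8 did not pass the test and none rose. The fallers included Fcer2a, the low-affinity IgE receptor (-2.45), the transcription factor Ebf1 (-2.21), the complement receptor gene Cr2 (-2.09) and the kinase Blk (-1.48). The summed B-cell signal, in multiples of the array's 75th percentile, was 394 to 466 after IFN-β and 422 to 532 after PBS in wild type, which overlap. The mean log2 level over the same markers, in which each marker weighs the same, was 2.04 to 2.44 after IFN-β and 2.70 to 3.31 after PBS, with no overlap.

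Ms4a2, the IgE receptor β chain, passed the test in none of the 4 comparisons. It read -3.17, -3.32 and -3.30 after IFN-β in wild type, against -3.49, -3.34 and -3.26 after PBS, a difference of 0.10 ± 0.15 (log2, SE). In Ifnar2-/- cells it read -2.97, -3.26 and -2.78 after IFN-β, against -2.98, -2.93 and -2.58 after PBS. Both pairs overlapped. Among 12 mast-cell markers in wild type, the serotonin enzyme Tph1 rose (1.86), the mast-cell receptor Mrgprb2 (-1.35), the growth factor receptor Kit (-1.11) and the protease Mcpt4 (-0.47) fell, and 8 did not pass. The α chain of the same receptor, Fcer1a, gave -0.09 and its shared γ chain, Fcer1g, gave 0.43, neither past the test. Of 5 basophil markers, Il4 rose (0.86) and 4 did not pass.

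Ms4a3, the progenitor marker, was the least even member. It read -4.40, -1.73 and -2.13 after IFN-β in wild type, against -1.62, -4.10 and -3.69 after PBS, so that arrays of a group differed more than the groups did. The difference was 0.38 ± 0.79 (log2, SE, limma adjusted p = 0.750). Ifnar2-/- arrays read -4.29, -3.01 and -4.75 after IFN-β, against -3.20, -3.91 and -3.70 after PBS. The summed signal of 7 progenitor and granule markers was 6.46, 10.7 and 8.06 on the wild-type IFN-β arrays, against 12.4, 5.95 and 5.68 on the wild-type PBS arrays. Its 3 highest wild-type values were on the 3 arrays where Ms4a3 was highest. None of those 7 markers passed the test in wild type. The summed signal of 8 neutrophil markers was 17.7 to 25.1 after IFN-β and 10.5 to 108 after PBS, with the 108 on PBS array 1, where Ms4a3 was highest. In Ifnar2-/- that sum was highest on IFN-β array 3 (199), where Ms4a3 was lowest of all 12 arrays, so the sum did not follow Ms4a3 over both genotypes. The part of either list in the spread of Ms4a3 was not tested.

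Ms4a7, known from tissue macrophages, was the member with the lowest log2 fold change in wild type. It read -2.17, -2.44 and -2.05 after IFN-β, against -1.45, -1.82 and -1.98 after PBS, which did not overlap, with a difference of -0.47 ± 0.18 (log2, SE, limma adjusted p = 0.0622). The second Ms4a7 probe gave -0.67 and did pass (adjusted p = 0.0203), as did the mean over both probes (-0.57, adjusted p = 0.0305). In Ifnar2-/- cells Ms4a7 read -2.39, -2.45 and -2.50 after IFN-β, against -2.36, -2.88 and -2.41 after PBS, which overlapped. Of 12 large peritoneal macrophage markers in wild type, 3 rose, 4 fell and 5 did not pass, with the apoptosis-inhibitory family member Naip1 (-2.29) and the retinoic acid receptor Rarb (-1.63) among the fallers and Timd4 (1.41) and Mertk (1.35), receptors for dying cells, among the risers. Their summed signal overlapped, at 753 to 840 after IFN-β and 663 to 860 after PBS.

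Markers of other cells moved with the genes that rose. Beside Ms4a4b, 9 of 14 T-cell markers fell in wild type and none rose, among them Thy1 (-2.09), Cd5 (-1.55), Trat1 (-1.54) and the T-cell receptor subunit Cd3g (-1.45). The summed T-cell signal was 10.5 to 15.7 after IFN-β and 19.05 to 30.5 after PBS. Of 8 NK-cell markers, 5 rose and 2 fell, with the granule proteases Gzmb (4.06) and Gzma (1.98) and the receptor Klrk1 (2.72) among the risers and the receptor Klrb1c (-1.52) among the fallers. The summed NK-cell signal was 7.57 to 10.1 after IFN-β and 1.35 to 3.01 after PBS. In that sum bright markers weigh most. Gzmb and Gzma averaged 2.20 and 1.19 (log2) after IFN-β in wild type, against -1.86 and -0.79 after PBS. Klrb1c averaged -4.58 after IFN-β and -3.06 after PBS. So in wild type Ms4a4b went with the NK-cell sum, though not with every NK-cell marker, and against the T-cell sum. That likeness was not seen in Ifnar2-/-, where neither Ms4a4b nor any of these markers passed the test. There Ms4a4b gave -0.47, beside medians of 0.46 for the NK-cell markers and -0.27 for the T-cell markers. The part of either cell type in the rise of Ms4a4b was not tested.

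Beside the Ms4a6 genes, 5 of 8 monocyte markers rose in wild type and none fell, among them Vcan (3.73), Chil3 (3.46) and Ly6c1 (1.46). The summed monocyte signal was 457 to 502 after IFN-β and 229 to 258 after PBS in wild type. In Ifnar2-/- it was 223 to 233 after IFN-β and 226 to 251 after PBS. None of the 8 monocyte markers was below background on all arrays of a group. The part of these markers in the rise of Ms4a6b, Ms4a6c and Ms4a6d was not tested. Of 19 interferon-stimulated genes, all 19 rose in wild type, with a median of 7.31 (log2) that is above the rise of every MS4A gene.

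**Figure D5:**
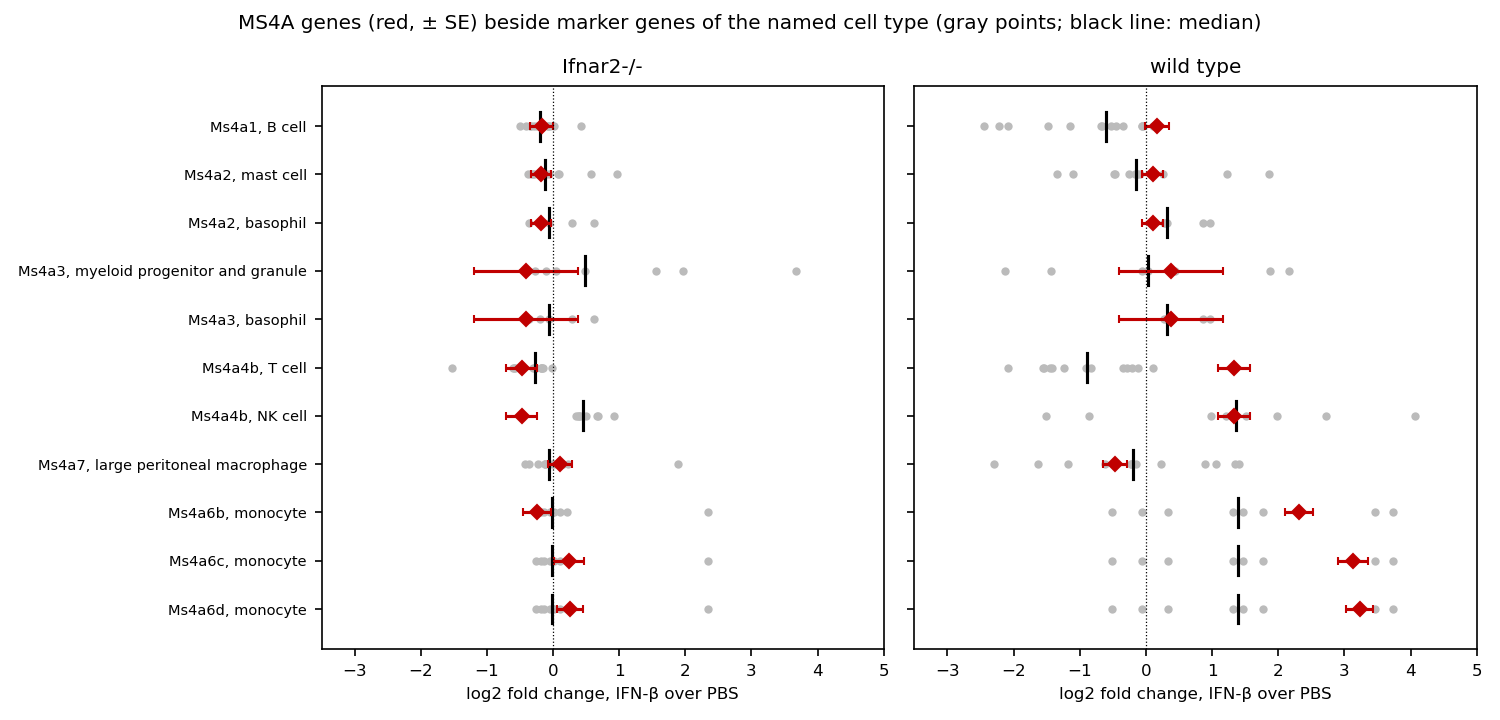
Each row sets an MS4A gene (red diamond, ± SE) beside the markers of a cell type (gray points, with a black line at their median), with the log2 fold change of IFN-β over PBS on the horizontal axis, Ifnar2-/- on the left and wild type on the right. In wild type Ms4a4b (1.33) lies above the T-cell median of -0.89 and beside the NK-cell median of 1.36. Ms4a6c (3.14) and Ms4a6d (3.23) lie above the monocyte median of 1.39.

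After PBS alone, Ifnar2-/- and wild-type cells differed in 1 member, Ms4a7, which was lower in Ifnar2-/- by 0.80 ± 0.18 (log2, SE, limma adjusted p = 0.0308). That is 1 of 10 members, beside 4.88% of all genes called in either direction, 2.85% higher and 2.04% lower. Its 3 Ifnar2-/- arrays lay below its 3 wild-type arrays. The second Ms4a7 probe gave -0.75 (adjusted p = 0.0626). The call was lost when any of 5 single arrays was left out: Ifnar2-/- PBS array 2 (-0.64, adjusted p = 0.115) or 3 (-0.87), wild-type PBS array 1 (-0.65, adjusted p = 0.122) or 2 (-0.84), or wild-type IFN-β array 1 (-0.80). The PBS groups share no slide, and the difference was -0.60 in a fit with a term for slide (adjusted p = 0.999945) and -0.61 without slide 3 (adjusted p = 0.491).

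Of the genes that rose, none passed the test between genotypes after PBS. Their differences ran from 0.02 ± 0.23 for Ms4a6c to 0.65 ± 0.20 for Ms4a6d (log2, SE), all above 0 in this fit. That sign did not hold under every other setting. The lowest values were -0.09 for Ms4a4b, -0.23 for Ms4a4d, -0.06 for Ms4a6b and -0.20 for Ms4a6c. Ms4a6d read 3.77, 3.37 and 3.55 in Ifnar2-/-, against 2.68, 3.34 and 2.71 in wild type, which did not overlap (limma adjusted p = 0.102). Its difference was 0.86 without slide 3 and 0.62 in a fit with a term for slide. Of the 19 interferon-stimulated genes, 13 were lower in Ifnar2-/- after PBS and 6 did not pass, with a median of -1.53 and with Oasl1 (-4.81), Oasl2 (-4.03), Usp18 (-3.93) and Oas1a (-3.24) among the lower ones. The 6 MS4A genes and these genes thus differ in how many were called lower at baseline, 0 of 6 beside 13 of 19, a difference that was not tested. Without slide 3, which leaves 1 Ifnar2-/- PBS array, 8 of the 19 were called lower, with a median of -1.37. In the fit with a term for slide, 1 of the 19 was (median -1.18).

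Ms4a2 also stood higher in Ifnar2-/- after PBS without passing the test. It read -2.98, -2.93 and -2.58 in Ifnar2-/-, against -3.49, -3.34 and -3.26 in wild type, groups that did not overlap, with a difference of 0.53 ± 0.15 (log2, SE, limma adjusted p = 0.0814). Its partner Fcer1a was higher by 1.48 (adjusted p = 0.00108) and Kit by 0.87, the 2 of 12 mast-cell markers that passed. Without slide 3, Ms4a2 gave 0.38, Fcer1a 1.498 (adjusted p = 0.0503) and Kit 0.87 (adjusted p = 0.458), so that none of the 12 markers passed, and none did with a term for slide. The summed mast-cell signal was 324 to 394 in Ifnar2-/- and 233 to 309 in wild type. Ms4a1 and Ms4a3 gave -0.32 and -0.47 and overlapped. Tmem176a was higher in Ifnar2-/- by 0.92 ± 0.20 (adjusted p = 0.0250), and by 1.19 without slide 3 (adjusted p = 0.0456), but did not pass with a term for slide (1.09, adjusted p = 0.599).

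The tested genes most like each member over the 12 arrays were named by Pearson's r, as a description in which the 3 wild-type IFN-β arrays stand apart from the other 9 for the genes that rose. For Ms4a4c they included Calhm6 (r = 0.992) and Ms4a4d itself (r = 0.992), and for Ms4a4d they included Calhm6 (r = 0.994) and Whamm (r = 0.993). The closest to Ms4a6c was Tspo (r = 0.995), to Ms4a6b Fam111a (r = 0.991) and to Ms4a4b Gjb2 (r = 0.963). For Ms4a6d it was the probe under the older name (r = 0.999), followed by 4930486L24Rik (r = 0.988) and Ifitm6 (r = 0.987). Ms4a1 went most closely with Ralgps2 (r = 0.988), Ms4a2 with C1qtnf4 (r = 0.915), Ms4a3 with Bmp6 (r = 0.885) and Ms4a7 with Olfr373 (r = 0.901).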

How the data were processed

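Per the labels' protocols, RNA was labelled with Cy3 and hybridised to single-colour Agilent arrays. Per the file headers and the submitters' processing notes, Agilent Feature Extraction 9.5.3.1 made the deposited processed signal, an intensity on a linear scale with the background subtracted and no normalization between arrays. The deposited series table held the same values (0 of 45018 rows differed). Other deposited columns mark outliers, saturation and spots well above background. Here log2 of the processed signal minus log2 of the array's 75th percentile was taken over 43379 spots, outlier spots were left out and spots of a probe were averaged. Percentiles ranged from 659 to 968. A probe was kept if some group had it well above background on each of its arrays and at least 6 arrays gave a value (27718 probes). The probe with the highest mean signal stood for a gene.

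All 12 arrays entered 1 fit of 4 group means in limma 3.58.1 (R 4.3.3, 8 residual and 2.38 prior degrees of freedom). Tests were two-sided, with Benjamini-Hochberg adjustment over 18277 genes for each comparison. Probe-level values come from the same model over all 27718 probes. On simulated arrays of the wild-type comparison, it recovered 52% of changes of size 1 and 87% of size 2 (log2). Only 100 genes of each size were changed there, among 18254. The real wild-type comparison called 39.4% of genes, a far larger share, so these recovery rates need not hold for it. Names came from RefSeq for 22933 probes by accession, 6656 by symbol and 3108 by older symbol, and 8477 kept the file's name. Probes named Ms4a kept that name. Deviations of same-numbered arrays correlated at -0.12 to 0.51, over 0.1 in 5 of 18 pairs. The numbers were not taken to pair the samples. All 3 same-numbered pairs of Ifnar2-/- IFN-β and PBS arrays, each on a shared slide, lay over 0.1 (0.105 to 0.512). On slide 3, Ifnar2-/- pairs of unlike number correlated at 0.119 and 0.221, so likeness there did not follow the number. The Ifnar2-/- comparison was also fitted with the number as a block. The number of arrays limits precision. The members, marker lists and naming rules (all members and Ms4a genes, up to 4 called markers per list, and like genes among the 3 with the highest r) were chosen with earlier results of these data known. The promoter and probe sequences were aligned with Biopython 1.88.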

Additional observations from a re-analysis of the deposited data

Results flagged for a closer look

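The responses to IFN-β differed between genotypes, by the test of the difference itself, for 6 MS4A genes. The response in Ifnar2-/- minus that in wild type was -5.54 for Ms4a4d, -5.10 for Ms4a4c, -2.97 for Ms4a6d, -2.89 for Ms4a6c, -2.56 for Ms4a6b and -1.81 for Ms4a4b (log2). For each of them all 3 wild-type IFN-β arrays lay above all 3 wild-type PBS arrays, while the Ifnar2-/- groups overlapped.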

How the results depend on the processing

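Under 26 other settings of scaling, background, filter, probe choice, slide and left-out arrays, the calls of the Ms4a4 and Ms4a6 genes held wherever they could be fitted, in wild type and in the difference of responses, and no member was called in Ifnar2-/-. Of the 6 that rose, Ms4a4b had the widest range in wild type, 1.05 to 2.18, while Ms4a3, never called, ran from -1.26 to 1.21. No member's called value changed sign. The cause of the changes below was not tested. Calls among all genes in wild type were 4428 with slide as a fixed block and 3831 within slide 1, against 7206. In Ifnar2-/- they were 333 with normexp background, 68 with no filter on dim probes, 118 with slide as a fixed block, 2 within slide 2, 38 within slide 3 and 10 without slide 3 (a setting chosen after seeing the data), against 207. The difference of responses had 1922 with the slide block and 1472 without slide 3, against 3248. Genotype after PBS had 31 and 272, against 892. Leaving out 1 array gave 32 (Ifnar2-/- PBS array 2) to 289 calls in Ifnar2-/- and 437 (wild-type PBS array 1) to 1254 for genotype after PBS. Among members, genotype after PBS gave 2 calls with no scaling (Ms4a6d and Ms4a7), 0 with no filter on dim probes, the slide block or no slide 3, and 0 to 2 with 1 array left out. With no filter Ms4a7 had the same difference and an adjusted p of 0.0633, and with the slide block it gave -0.60 (adjusted p = 0.999945). Ms4a7 in wild type was called with no scaling (-0.63), on the mean of its probes, without wild-type PBS array 3 (-0.58, adjusted p = 0.0443) and without Ifnar2-/- PBS array 2 (adjusted p = 0.0412). Its difference of responses was called with no scaling (0.85, adjusted p = 0.0209). Ms4a6d after PBS was called without wild-type PBS array 2 (0.87) and Ms4a2 without Ifnar2-/- IFN-β array 3 (0.53). With the replicate number as a block, wild type had 7 members called, Ms4a7 added (adjusted p = 0.0464), and no other member's call changed. Among the 6 Ifnar2-/- arrays alone, where same-numbered arrays shared a slide, the block (chosen after seeing the data) called 0 of all genes in limma. That fit had 2802 of 18267 genes at an unadjusted p under 0.05.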
